A study of Homo sapiens with 6 samples.

Results

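Cohesin and condensin are ring-shaped protein complexes built on a pair of SMC ATPases, and 10 of their subunit genes were followed in T-24, an established human bladder carcinoma line of epithelial origin. The members were chosen by gene symbol: 5 cohesin genes (SMC1A, SMC3, RAD21, STAG1 and STAG2) and 5 condensin genes (SMC2, SMC4, NCAPD2, NCAPG and NCAPH), out of 38557 gene symbols in the deposited tables. All 10 passed the low-count filter and were tested. Poly(A) RNA was sequenced from cells given 1 µM CCT068127 for 48 h (3 libraries) and from cells given the vehicle DMSO for 48 h (3 libraries), described in the labels as independent biological replicates of the same line. CCT068127 inhibits CDK2, a kinase of the cell cycle, and CDK9, a kinase of transcription elongation, and the series asks which transcripts it alters.

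Cohesin holds sister chromatids together from replication until anaphase and folds interphase chromatin into loops. Its core is the ATPase pair SMC1A and SMC3, closed by the kleisin RAD21, which binds either STAG1 or STAG2. Condensin compacts chromosomes in mitosis. Its ATPases SMC2 and SMC4 serve both condensin I, with NCAPD2, NCAPG and the kleisin NCAPH, and condensin II, with a subunit set of its own. STAG2 is one of the genes often inactivated in bladder cancer.

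The libraries differed widely in depth, with totals of 5557546, 1966742 and 4657316 counts in CCT068127 replicates 1 to 3 and of 371044040, 411097626 and 5955296 counts in DMSO replicates 1 to 3. Counts of the 10 members lay between 35 and 78122 per library. The epithelial keratin KRT7 stood at 2311 to 2819 CPM (counts scaled to a common library total) in CCT068127 and at 1202 to 1687 CPM in DMSO. The adhesion gene CDH1 was at 0.237 CPM or less in CCT068127 and 0.299 CPM or less in DMSO, and the summed level of 7 markers of other cell types was 12 to 14.7 CPM in CCT068127 and 41.1 to 47.9 CPM in DMSO, most of it PDGFRB in DMSO. The urothelial genes UPK1A, UPK2 and UPK3A were below 1 CPM in every library, and GATA3 stood at 23.4 to 31.2 CPM in CCT068127 and 105 to 133 CPM in DMSO. UPK1B stood at 1.66 to 2.45 CPM in CCT068127 and 0.0976 to 0.299 CPM in DMSO, and TP63 at 0.611 to 2.28 CPM in CCT068127 and 0.4 to 1.05 CPM in DMSO. Whether these markers have a part in the results below was not tested. In edgeR's quasi-likelihood test, 64.7% of 13597 genes had an adjusted p under 0.05, so a call alone does not set a gene apart here.

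The promoters of condensin genes are known to be bound through the cell cycle homology region (CHR), a short element of genes active in late cell cycle phases, and those of replication genes by E2F. Windows from 250 bases before to 50 bases after the start site were taken from RefSeq (GRCh38.p14) and searched on both strands for the CHR letters (TTTGAA, or else TTTAAA), for CCAAT, and for the E2F letters (TTCCCGC, or else TTGGCGC, or else TTCGCGC, or else TTGCCGC). All 5 condensin genes held CHR letters in at least one window, and of the 4 cohesin genes with a window only SMC3 did. E2F letters were held by 3 of 4 cohesin genes (SMC1A, STAG1 and STAG2) and 2 of 5 condensin genes (SMC4 and NCAPG). CCAAT was held by 2 of 4 cohesin genes (STAG1 and STAG2) and 2 of 5 condensin genes (NCAPD2 and NCAPH). Over the table, 27.9% of 27305 genes held CHR letters, 39.7% held CCAAT and 15.3% held E2F letters. The windows shown are of the condensin ATPase pair (SMC2 and SMC4), of the condensin gene with the largest rise (NCAPH) and of a cohesin gene in each direction (SMC1A and STAG1), with the matched letters in capitals, 5′ to 3′ on the strand of the gene.
NCAPH, chr2:96335516-96335815, plus strand: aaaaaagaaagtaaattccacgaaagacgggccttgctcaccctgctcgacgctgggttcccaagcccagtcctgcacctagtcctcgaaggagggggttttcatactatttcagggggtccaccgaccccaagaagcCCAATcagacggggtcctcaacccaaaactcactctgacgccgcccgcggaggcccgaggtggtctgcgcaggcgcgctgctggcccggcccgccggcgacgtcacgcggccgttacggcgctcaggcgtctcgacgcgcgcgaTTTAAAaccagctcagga
SMC2, chr9:104094059-104094358, plus strand: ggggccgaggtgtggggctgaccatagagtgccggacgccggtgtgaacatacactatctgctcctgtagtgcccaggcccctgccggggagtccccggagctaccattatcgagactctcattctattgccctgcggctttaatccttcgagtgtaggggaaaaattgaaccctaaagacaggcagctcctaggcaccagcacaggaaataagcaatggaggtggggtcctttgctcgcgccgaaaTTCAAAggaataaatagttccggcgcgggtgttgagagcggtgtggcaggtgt
SMC4, chr3:160399400-160399699, plus strand: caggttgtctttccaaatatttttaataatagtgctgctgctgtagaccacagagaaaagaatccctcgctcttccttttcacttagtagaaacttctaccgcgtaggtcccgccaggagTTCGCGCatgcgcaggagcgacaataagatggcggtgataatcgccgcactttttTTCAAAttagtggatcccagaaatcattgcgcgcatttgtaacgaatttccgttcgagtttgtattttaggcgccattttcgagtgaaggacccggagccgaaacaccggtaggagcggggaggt
SMC1A, chrX:53422605-53422904, minus strand: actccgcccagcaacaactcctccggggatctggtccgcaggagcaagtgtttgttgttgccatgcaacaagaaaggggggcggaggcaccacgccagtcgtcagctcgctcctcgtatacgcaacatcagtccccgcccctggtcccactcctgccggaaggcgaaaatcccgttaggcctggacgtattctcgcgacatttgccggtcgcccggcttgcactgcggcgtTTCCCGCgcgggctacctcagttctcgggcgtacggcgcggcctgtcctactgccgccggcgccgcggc
STAG1, chr3:136752329-136752628, minus strand: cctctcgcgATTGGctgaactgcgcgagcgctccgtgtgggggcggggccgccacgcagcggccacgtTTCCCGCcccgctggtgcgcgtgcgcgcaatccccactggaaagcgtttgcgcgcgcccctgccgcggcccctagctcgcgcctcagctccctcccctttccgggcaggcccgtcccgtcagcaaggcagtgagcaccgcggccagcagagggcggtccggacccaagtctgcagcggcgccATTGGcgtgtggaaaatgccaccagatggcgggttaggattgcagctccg
The CHR letters began at base 33 after the start of NCAPH, at base -3 in SMC2 and at base -75 in SMC4, where the letters run on the other strand in SMC2 and SMC4. SMC1A and STAG1 held E2F letters, at bases -19 and -182, and SMC4 held them at base -130. The matches in the members' windows did not overlap each other. A match of letters is a description of the window and not evidence of binding.

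Among the 10 members, 5 rose and 2 fell with CCT068127, against 31.9% of all tested genes that rose and 32.8% that fell (edgeR, adjusted p under 0.05). The cohesin genes split into 2 that rose (SMC1A and RAD21), 1 that fell (STAG1) and 2 that did not pass. The condensin genes split into 3 that rose (SMC2, NCAPG and NCAPH), 1 that fell (SMC4) and 1 that did not pass, and without CCT068127 replicate 3 the number of condensin genes that rose was 0. The CPM of the groups did not overlap for 4 of the 10 members, against 69.4% of all tested genes. SMC1A and NCAPH were the 2 that lay higher (33.3% of tested genes did), and STAG1 and SMC4 the 2 that lay lower (36.0%). On TPM the groups overlapped for SMC1A (18.28 to 21.43 in CCT068127, 18.71 to 18.92 in DMSO) and NCAPH (8.85 to 12.84, 5.5 to 11.81). No member lay higher without overlap on TPM, and SMC3, STAG1, STAG2, SMC4 and NCAPD2 lay lower. The share of all tested genes without overlap on TPM was not counted. The median log2 fold change was -0.14 over cohesin and 0.61 over condensin, beside -0.05 over all tested genes, and with limma-trend on log2(TPM + 1) values no member of either complex rose, 3 cohesin and 2 condensin genes fell, and the median over all tested genes was -0.46. The members' fold changes are therefore also given relative to the median gene of the fit. In bulk RNA, a changed share of cells in a phase of the cell cycle and a changed level per cell cannot be told apart.

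**Figure D1:**
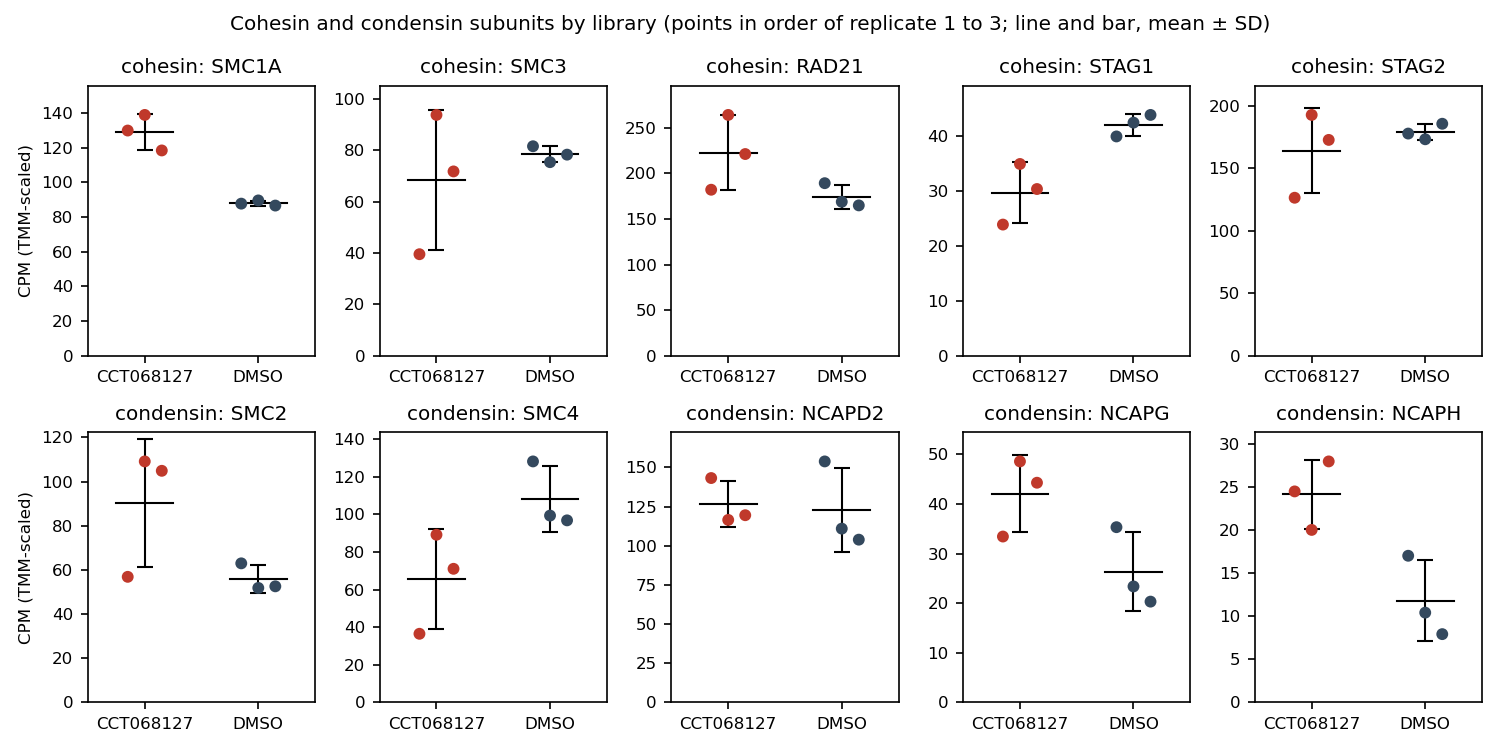
CPM (TMM-scaled, linear axis from 0) of the 5 cohesin genes (upper row) and the 5 condensin genes (lower row), with CCT068127 libraries left and DMSO libraries right; points are libraries, lines and bars the mean ± SD (n = 3). The groups do not overlap for SMC1A, STAG1, SMC4 and NCAPH, and CCT068127 replicate 1 is the lowest treated library for SMC3, RAD21, STAG1, STAG2, SMC2, SMC4 and NCAPG.

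SMC1A (chromosome X, 53374149 to 53422728, GRCh38), an ATPase of the cohesin ring, had 129.8, 139 and 118 CPM in CCT068127 replicates 1 to 3, against 87.7, 89.6 and 86.6 CPM in DMSO replicates 1 to 3. Every treated library was above every DMSO library, and the DMSO libraries differed little. SMC1A rose by 0.55 ± 0.10 on the log2 scale (SE; edgeR adjusted p = 0.000626). Its partner SMC3 (chromosome 10, 110567695 to 110606048) had 39.5, 93.7 and 71.7 CPM in CCT068127, against 81.5, 75.3 and 78.2 CPM in DMSO. The treated libraries lay on both sides of the DMSO libraries, and SMC3 did not pass (-0.26 ± 0.24, edgeR adjusted p = 0.373). Without CCT068127 replicate 1 the SMC3 value was 0.02, so its direction in the edgeR fit rests on that library. On TPM every treated library lay below every DMSO library (14.07, 34.57 and 26.44 in CCT068127, 41.9, 37.99 and 40.39 in DMSO). SMC3 passed as lower in the fit to log2(TPM + 1) values (-0.74, limma-trend adjusted p = 0.0462).

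RAD21 (chromosome 8, 116845934 to 116874776), the kleisin that separase cuts at anaphase, had 182, 264 and 221 CPM in CCT068127, against 189, 169 and 165 CPM in DMSO. The groups overlapped, since CCT068127 replicate 1 lay below DMSO replicate 1. RAD21 passed at the edge of the threshold (0.34 ± 0.13, edgeR adjusted p = 0.0433). Its call was lost when DMSO replicate 2 (0.29, edgeR adjusted p = 0.147), DMSO replicate 3 (0.27, 0.165), CCT068127 replicate 2 (0.18, 0.179) or CCT068127 replicate 3 (0.33, 0.125) was left out, with the replicate block (0.33, 0.0522), with DESeq2 (adjusted p = 0.0621) and with library totals (0.03, adjusted p = 0.864). On log2(TPM + 1) values it turned to -0.15 (limma-trend adjusted p = 0.405).

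STAG1 (chromosome 3, 136336236 to 136752378), an alternative HEAT-repeat subunit of cohesin, had 23.8, 34.8 and 30.3 CPM in CCT068127, against 39.8, 42.3 and 43.7 CPM in DMSO. All 3 treated libraries were below all DMSO libraries. STAG1 fell by 0.54 ± 0.14 on the log2 scale (edgeR adjusted p = 0.00578), and it kept its direction in all 17 alternatives and its call in each of them that had a test. STAG2 (chromosome X, 123960560 to 124102656), which takes the same place in the ring, had 126, 193 and 173 CPM in CCT068127, against 178, 173 and 185 CPM in DMSO. STAG2 overlapped between the groups and did not pass (-0.14 ± 0.14, edgeR adjusted p = 0.408). It passed as lower with library totals (-0.45, edgeR adjusted p = 0.0172), without a low-count filter (-0.37, 0.0283) and on log2(TPM + 1) values (-0.58, limma-trend adjusted p = 0.0179).

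Among the condensin ATPases, SMC2 (chromosome 9, 104088263 to 104141419) had 56.9, 109 and 105 CPM in CCT068127, against 63, 51.8 and 52.6 CPM in DMSO. CCT068127 replicates 2 and 3 stood well above DMSO, while CCT068127 replicate 1 lay within its range. SMC2 rose by 0.66 ± 0.21 (edgeR adjusted p = 0.0218). SMC4 (chromosome 3, 160399650 to 160434953) had 36.5, 89.1 and 71 CPM in CCT068127, against 128, 99.3 and 96.8 CPM in DMSO. No treated library reached the DMSO range, and the treated libraries spread over a wider range than the DMSO libraries. SMC4 fell by 0.78 ± 0.28 on the log2 scale (edgeR adjusted p = 0.0352). The SMC2 call was lost when DMSO replicate 2 (0.58, edgeR adjusted p = 0.0754), DMSO replicate 3 (0.60, 0.0582), CCT068127 replicate 2 (0.49, 0.113) or CCT068127 replicate 3 (0.49, 0.124) was left out, with the replicate block (0.63, 0.0511), with library totals (0.35, 0.178) and on log2(TPM + 1) values (0.17, limma-trend adjusted p = 0.546). SMC4 lost its call without DMSO replicate 1 (-0.67, edgeR adjusted p = 0.0996) or DMSO replicate 2 (-0.86, 0.0624), with the replicate block (-0.81, 0.108) and with the deep DMSO libraries thinned (-0.73, 0.0635). It stood at -0.49 without CCT068127 replicate 1 and kept its direction in all 17 alternatives.

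The condensin I subunits did not move as one. NCAPH (chromosome 2, 96335766 to 96377091), the kleisin, had 24.5, 19.99 and 27.9 CPM in CCT068127, against 17, 10.4 and 7.91 CPM in DMSO. The groups did not overlap, and DMSO replicate 1 was the highest DMSO library. NCAPH rose 1.98-fold (0.99 ± 0.26 on the log2 scale, edgeR adjusted p = 0.00778). NCAPG (chromosome 4, 17810979 to 17844865), a HEAT-repeat subunit, had 33.4, 48.6 and 44.3 CPM in CCT068127, against 35.3, 23.4 and 20.3 CPM in DMSO. The groups met at CCT068127 replicate 1 and DMSO replicate 1, and NCAPG rose by 0.61 ± 0.22 (edgeR adjusted p = 0.0324). NCAPD2 (chromosome 12, 6494102 to 6531955), the other HEAT-repeat subunit, had 143, 117 and 119.5 CPM in CCT068127, against 154, 111 and 104 CPM in DMSO. Its groups overlapped, and NCAPD2 did not pass (0.04 ± 0.16, edgeR adjusted p = 0.83). It passed as lower on log2(TPM + 1) values (-0.42, limma-trend adjusted p = 0.0463) and on log2(TPM + 0.1) values (-0.43, 0.0499).

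DMSO replicate 1 was the highest DMSO library for all 5 condensin genes, and without it NCAPH stood at 1.32, NCAPG at 0.85 and NCAPD2 at 0.21. NCAPH lost its call without CCT068127 replicate 3 (0.87, edgeR adjusted p = 0.0546) and on log2(TPM + 1) values (0.45, limma-trend adjusted p = 0.159). The NCAPG call was lost when DMSO replicate 2 (0.49, edgeR adjusted p = 0.0997), DMSO replicate 3 (0.46, 0.0838), CCT068127 replicate 2 (0.48, 0.147) or CCT068127 replicate 3 (0.53, 0.135) was left out, with library totals (0.30, 0.249) and on log2(TPM + 1) values (0.24, limma-trend adjusted p = 0.398). SMC1A also lost its call on log2(TPM + 1) values (0.06, limma-trend adjusted p = 0.638).

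Relative to the median gene, the members' values depended on which genes entered the fit. Over 8 fits with a low-value filter on all 6 libraries, NCAPH stood 0.91 to 1.08 above the median gene, NCAPG 0.66 to 0.78, SMC2 0.63 to 0.75, SMC1A 0.52 to 0.61 and RAD21 0.31 to 0.39. SMC4 stood at -0.78 to -0.70 and STAG1 at -0.49 to -0.30 on the same scale. SMC3 (-0.28 to -0.21), STAG2 (-0.11 to -0.06) and NCAPD2 (0.04 to 0.10) were nearer the median gene. In the 3 fits without that filter, where 27872 to 29138 genes set the median, the ranges were wider. NCAPH stood at 0.38 to 1.23 there, NCAPG at 0.0038 to 0.86 and SMC2 at 0.033 to 0.91, while SMC1A (-0.10 to 0.80) and RAD21 (-0.31 to 0.59) changed sign. SMC4 (-1.39 to -0.53) and STAG1 (-1.18 to -0.28) stayed below the median gene in those 3 fits, and SMC3 (-0.87 to 0.0055), STAG2 (-0.78 to 0.12) and NCAPD2 (-0.60 to 0.29) lay on both sides. With the filter and 1 library left out in turn, the ranges were 0.87 to 1.36 for NCAPH, 0.52 to 0.89 for NCAPG, 0.55 to 0.96 for SMC2, 0.53 to 0.66 for SMC1A and 0.24 to 0.50 for RAD21. They were -0.99 to -0.44 for SMC4 and -0.60 to -0.35 for STAG1, and crossed 0 for SMC3 (-0.47 to 0.078), STAG2 (-0.23 to 0.054) and NCAPD2 (-0.036 to 0.26).

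Per transcript length, the make-up of each complex differed between the groups. RAD21 supplied 48.7 ± 1.16% of the summed TPM (read abundance per transcript length, scaled to the library) of the 5 cohesin genes in CCT068127 and 41.9 ± 1.96% in DMSO (SD, n = 3). The TPM of RAD21 itself was not higher, at 73.4, 110.5 and 92.4 in CCT068127, against 110.1, 96.4 and 96.3 in DMSO. Its larger share goes with a lower mean sum of the 5 genes (189.7 in CCT068127, 240.5 in DMSO). STAG1, the least abundant cohesin transcript in all 6 libraries, supplied 4.78 ± 0.37% in CCT068127 and 6.64 ± 0.57% in DMSO. The condensin share of SMC4 was 16.8 ± 5.21% in CCT068127 and 31.4 ± 1.21% in DMSO. SMC2 supplied 22.5 ± 4.51% in CCT068127 and 15.6 ± 1.55% in DMSO, and NCAPH 10.02 ± 2.55% in CCT068127 and 5.54 ± 1.124% in DMSO. NCAPD2 had the largest condensin share, with 36.1 ± 9.01% in CCT068127 and 37.7 ± 0.60% in DMSO, a difference smaller than the spread between treated libraries. These shares do not depend on how libraries were scaled to each other and were not tested.

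**Figure D2:**
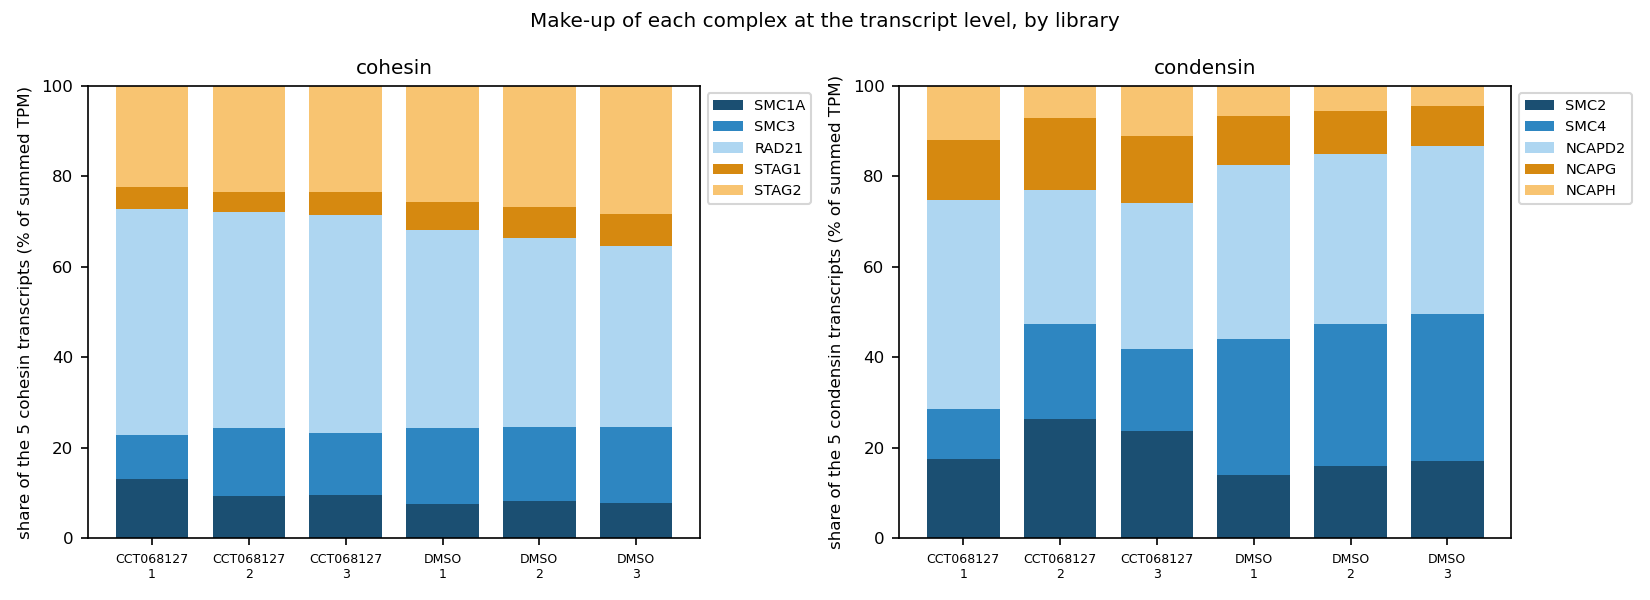
Share of each gene in the summed TPM of the 5 cohesin genes (left) and of the 5 condensin genes (right), in percent, with 1 bar per library and CCT068127 libraries left of DMSO libraries. RAD21 takes the largest share of cohesin in every library, and the SMC4 share of condensin averages 16.8% in CCT068127 and 31.4% in DMSO.

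The summed TPM of the 5 condensin genes was 93.9, 124 and 117 in CCT068127, against 176, 127 and 122.8 in DMSO. That of the 5 cohesin genes was 147, 230.5 and 192 in CCT068127, against 250.4, 231 and 240.3 in DMSO. Condensin came to 64.1%, 53.9% and 60.8% of cohesin in CCT068127 and to 70.2%, 55.2% and 51.1% of cohesin in DMSO, so the groups overlapped in the balance of the complexes. The groups differed by 0.03 in the log2 ratio of the sums, against SDs of 0.13 in CCT068127 and 0.24 in DMSO.

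Ratios of 2 subunits within one library were taken for 4 chosen pairs. The TPM of SMC2 was 1.59, 1.24 and 1.31 times that of SMC4 in CCT068127, against 0.464, 0.505 and 0.524 times in DMSO. SMC2 was thus the more abundant condensin ATPase transcript in each treated library and the less abundant in each DMSO library, a log2 difference of 1.46 between the groups. The TPM of SMC3 was 0.728, 1.61 and 1.45 times that of SMC1A in CCT068127, against 2.22, 2.01 and 2.16 times in DMSO, a log2 difference of -0.83. STAG2 had 4.60, 5.34 and 4.60 times the TPM of STAG1 in CCT068127, against 4.29, 3.95 and 3.97 times in DMSO, a log2 difference of 0.25. NCAPG had 0.285, 0.536 and 0.463 times the TPM of NCAPD2 in CCT068127, against 0.282, 0.256 and 0.235 times in DMSO, a log2 difference of 0.69. The groups did not overlap for any of these 4 ratios, though for NCAPG over NCAPD2 replicate 1 of CCT068127 and replicate 1 of DMSO nearly met. The share of other gene pairs with ratios that do not overlap was not counted. On CPM, 69.4% of single tested genes did not overlap either, so lack of overlap alone does not set these pairs apart. For each, the exact permutation test (two-sided) gave p = 0.1, the minimum for 3 against 3 libraries, and an adjusted p = 0.1 over the 4 ratios (exact permutation), so none could pass the threshold.

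**Figure D3:**
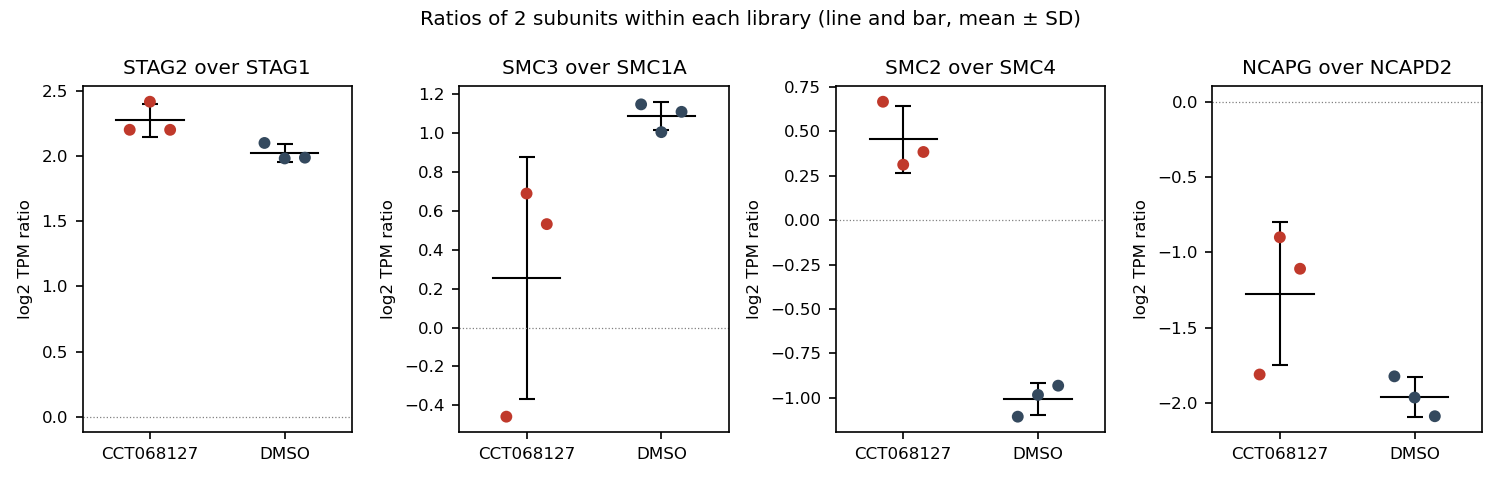
Log2 ratio of the TPM of 2 subunits within each library, with CCT068127 libraries left and DMSO libraries right; points are libraries, lines and bars the mean ± SD (n = 3), and the dotted line marks equal TPM. SMC2 over SMC4 lies above equality in all 3 CCT068127 libraries and below it in all 3 DMSO libraries.

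Over the 6 libraries, the closest pairs of members and the pair furthest apart each lay within a complex. On log2 CPM centred on the DMSO mean, SMC3 and STAG2 lay closest, at a Euclidean distance of 0.52 (Pearson r = 0.99), followed by SMC1A with RAD21 (0.53, r = 0.75) and SMC2 with NCAPG (0.54, r = 0.88). SMC4 and NCAPH lay furthest apart (3.51, r = -0.54). SMC2 and SMC4, which form one ATPase pair, had r = -0.01 and a distance of 2.52. These correlations describe 6 libraries of unlike depth in 2 groups, and carry no test. Within a library, all members share its depth and scaling.

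A difference between treated libraries ran through these patterns. CCT068127 replicate 1 was the lowest treated library for 7 members, SMC3, RAD21, STAG1, STAG2, SMC2, SMC4 and NCAPG. With tested genes split into 5 classes by GC content of the longest coding transcript, those 7 were the members in the class of lowest GC content (30.2% to 41%). Over the 2414 genes of that class, the median log2 difference from the DMSO mean was -0.31 in CCT068127 replicate 1, 0.10 in CCT068127 replicate 2 and -0.05 in CCT068127 replicate 3. In the class of highest GC content the medians were 0.03, -0.36 and -0.12 in the same libraries. SMC4 stood at -1.55, -0.27 and -0.59 in CCT068127 replicates 1 to 3 on this scale, below the median of its class in each. Fold changes also differed by transcript length, with a median log2 fold change of 0.16 in the class of shortest transcripts and -0.23 in the class of longest, which holds SMC1A, STAG1, STAG2 and SMC2. The part of GC content and length in the members' values was not tested.

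**Figure D4:**
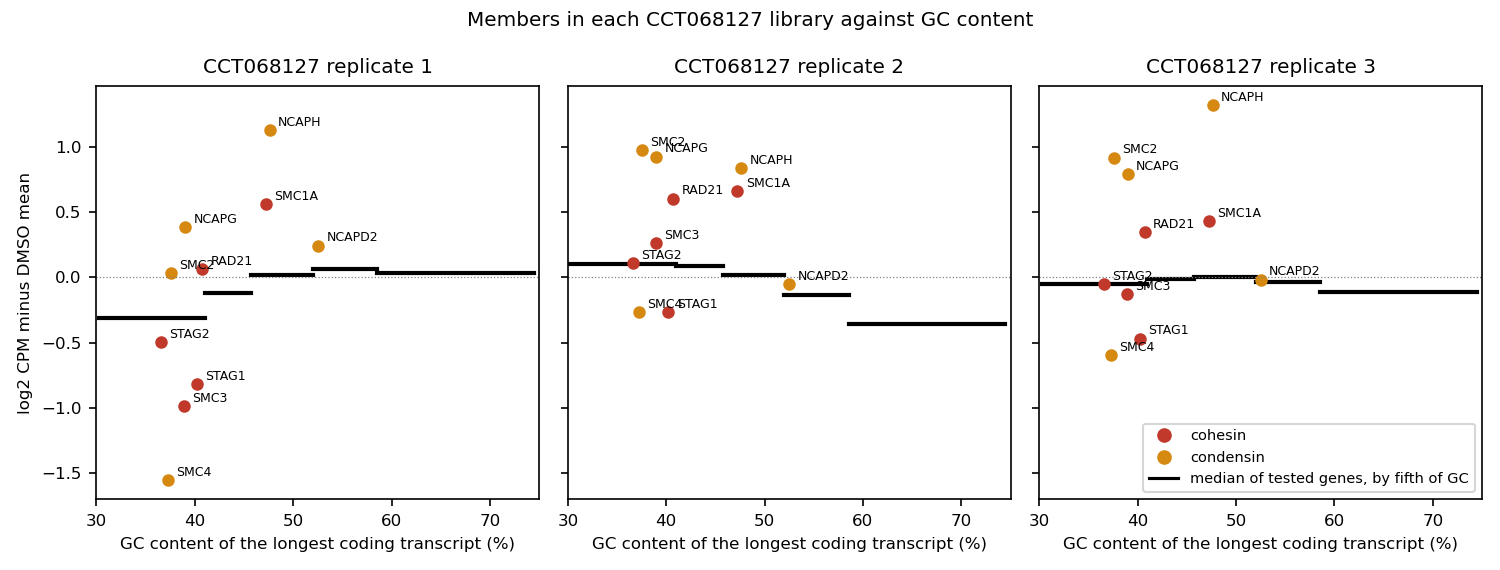
Log2 CPM minus the DMSO mean for each member in each CCT068127 library, against the GC content of its longest coding transcript in percent; cohesin genes are red, condensin genes orange, and black bars are the medians of tested genes in each of 5 classes of GC content. In CCT068127 replicate 1 the lowest class has a median of -0.31 and holds the 4 members below zero, STAG2, STAG1, SMC3 and SMC4.

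Strand was not given in the sources used here, and GENCODE 29 places exons of other genes on the opposite strand of several members. SMC4 shares 607 exon bases with IFT80 and 1561 with TRIM59, which stood at 5.71 to 13.7 and 4.89 to 13.1 CPM in CCT068127 and at 27.8 to 33.6 and 11.9 to 14.8 CPM in DMSO. STAG1 shares 1664 with PCCB, which stood at 33.7 to 40.8 CPM in CCT068127 and at 29.4 to 34.2 CPM in DMSO. NCAPG shares 1631 with LCORL, NCAPD2 shares 486 with MRPL51, and RAD21 shares 518 with UTP23. Pseudogenes of SMC4, NCAPD2 and NCAPG are annotated. Whether reads of these genes entered the members' counts was not tested.

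The genes that act with the members were taken from 3 lists by function. All 3 condensin II subunits rose, against 31.9% of all tested genes. NCAPD3, its HEAT-repeat subunit beside NCAPG2, had 97, 92 and 93 CPM in CCT068127, against 68.1, 51.6 and 49.6 CPM in DMSO (0.73 ± 0.13, edgeR adjusted p = 0.00066). NCAPG2 had 76.2, 80.5 and 81.7 CPM in CCT068127, against 57.4, 34.8 and 36.3 CPM in DMSO (0.87 ± 0.19, edgeR adjusted p = 0.00205). The kleisin NCAPH2 had 86.8, 63.4 and 70.5 CPM in CCT068127, against 35.7, 31.5 and 34.3 CPM in DMSO (1.14 ± 0.13, edgeR adjusted p = 2.22e-05). The CPM of the groups did not overlap for any of the 3, and 33.3% of tested genes lay higher without overlap. On TPM the groups overlapped for NCAPD3 (23.05 to 24.58 in CCT068127, 17.5 to 23.63 in DMSO) and NCAPG2 (33.45 to 36.3, 20.17 to 34.23), but not for NCAPH2. On log2(TPM + 1) values NCAPD3 (0.29, limma-trend adjusted p = 0.0924) and NCAPG2 (0.41, 0.0749) lost their calls.

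Of the 6 subunits of the SMC5/6 complex, which acts in the repair of replication damage, 0 rose and 3 fell, against 31.9% and 32.8% of all tested genes. SMC6, one of its ATPases, had 21.6, 44.6 and 36.2 CPM in CCT068127, against 59.2, 51.5 and 49.1 CPM in DMSO (-0.72 ± 0.21, edgeR adjusted p = 0.0105). NSMCE1 (-0.88 ± 0.11, edgeR adjusted p = 5.83e-05) and NSMCE3 (-0.35 ± 0.11, 0.0185) also fell, and NSMCE3 lost its call without CCT068127 replicate 3 (-0.34, edgeR adjusted p = 0.0612). SMC5 (0.03), NSMCE2 (-0.24) and NSMCE4A (-0.15) did not pass, and NSMCE2 (-0.70) and NSMCE4A (-0.67) passed as lower on log2(TPM + 1) values (limma-trend adjusted p = 0.000428 and 0.000648). The germline cohesin kleisin REC8 fell by 1.86 on the log2 scale (edgeR adjusted p = 0.00125). It had 1.22, 1.14 and 3.79 CPM in CCT068127, against 6.54, 9.34 and 8.21 CPM in DMSO. The treated values rest on few reads, 6, 2 and 16 counts, where the DMSO libraries of unlike depth held 2700, 4215 and 55 counts. The germline subunits SMC1B, RAD21L1 and STAG3 were too low to test, at 0.71 CPM or less in CCT068127 and 0.448 CPM or less in DMSO.

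Among 13 genes that load, release, acetylate or cleave cohesin, 3 rose and 4 fell, numbers near the 31.9% and 32.8% of all tested genes. CDCA5, which encodes sororin, the protector of replicated cohesion, had 203, 185 and 172 CPM in CCT068127, against 56.9, 34 and 32.1 CPM in DMSO (2.16 ± 0.21, edgeR adjusted p = 1.17e-05). ESCO2, the acetyltransferase of SMC3 in S phase, had 16.5, 19.4 and 20.8 CPM in CCT068127, against 4.66, 2.59 and 2.09 CPM in DMSO (2.47 ± 0.28, edgeR adjusted p = 2.46e-05). Every treated library was above every DMSO library for both genes. PTTG1, the securin that restrains separase, rose by 0.96 ± 0.19 (edgeR adjusted p = 0.00111) and lost its call on log2(TPM + 1) values (0.49, limma-trend adjusted p = 0.0516). The genes that fell were HDAC8, the SMC3 deacetylase (-0.79 ± 0.13, edgeR adjusted p = 0.000434), MAU2, a part of the loader (-0.61 ± 0.12, 0.000853), WAPL, the release factor (-0.54 ± 0.13, 0.00385), and CTCF, which stops cohesin at loop anchors (-0.48 ± 0.12, 0.00524).

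The loader NIPBL did not pass (-0.48, edgeR adjusted p = 0.0856), with 35.5, 81.7 and 57.5 CPM in CCT068127, against 75.4, 78.2 and 79.3 CPM in DMSO. ESCO1, the other SMC3 acetyltransferase, did not pass either (-0.54, edgeR adjusted p = 0.0876), nor did PDS5A (-0.26), PDS5B (-0.26), the separase gene ESPL1 (0.69) and the centromere protector SGO1 (0.59). Without CCT068127 replicate 2, NIPBL (-0.77), ESCO1 (-0.77), PDS5A (-0.42) and PDS5B (-0.34) passed as lower and the number of the 13 genes that fell was 8. Without DMSO replicate 1, ESPL1 (1.03) and SGO1 (0.89) passed as higher, as did ESPL1 without CCT068127 replicate 3 (0.89). ESPL1 also passed as higher with the replicate block (0.75, edgeR adjusted p = 0.00267), DESeq2 size factors (0.73, 0.0464), no low-count filter (0.44, 0.0469) and thinned DMSO libraries (0.79, 0.0172). NIPBL passed as lower with the replicate block (-0.51, edgeR adjusted p = 0.0429), library totals (-0.79, 0.0113) and no low-count filter (-0.71, 2.57e-05). ESCO1, PDS5A and PDS5B also passed as lower with library totals (edgeR adjusted p = 0.0141, 0.00571 and 0.00372). So they did without a low-count filter (edgeR adjusted p = 0.000289, 0.00287 and 0.0111). On log2(TPM + 1) values NIPBL (limma-trend adjusted p = 0.0162), ESCO1 (0.0258) and PDS5B (0.00599) passed as lower, and PDS5A (0.0564) did not.

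Of 9 mitotic chromosome partners of condensin, 4 rose and 1 fell, where 31.9% of all tested genes rose and 32.8% fell. CDK1, the kinase that drives mitotic entry and phosphorylates condensin, rose by 1.27 ± 0.18 (edgeR adjusted p = 0.00013). INCENP, the scaffold of the chromosomal passenger complex (0.92 ± 0.15, 0.000393), its kinase AURKB (0.95 ± 0.31, 0.0274) and the chromosomal kinesin KIF4A (0.98 ± 0.18, 0.000662) rose in the same edgeR fit. The topoisomerase TOP2B had 61.1, 84.5 and 67.2 CPM in CCT068127, against 142, 152 and 146 CPM in DMSO and fell by 1.07 ± 0.12 on the log2 scale (edgeR adjusted p = 2.66e-05). Its mitotic paralog TOP2A (-0.17), the chromosome surface protein MKI67 (0.05), the kinase PLK1 (-0.13) and MCPH1, an inhibitor of condensin II (0.31), did not pass, and MCPH1 passed as higher without CCT068127 replicate 2 (0.40). TOP2A (-0.62, limma-trend adjusted p = 0.021) and PLK1 (-0.58, 0.0118) passed as lower on log2(TPM + 1) values. Both also passed as lower with library totals (edgeR adjusted p = 0.0254 and 0.0305) and without a low-count filter (0.0132 and 0.0409). AURKB lost its call without DMSO replicate 2 (0.77, edgeR adjusted p = 0.0823) and without CCT068127 replicate 1 (0.77, 0.139), 2 (1.02, 0.0563) or 3 (0.96, 0.0557). It also lost its call with library totals (0.64, edgeR adjusted p = 0.0805) and on log2(TPM + 1) values (0.48, limma-trend adjusted p = 0.19).

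**Figure D5:**
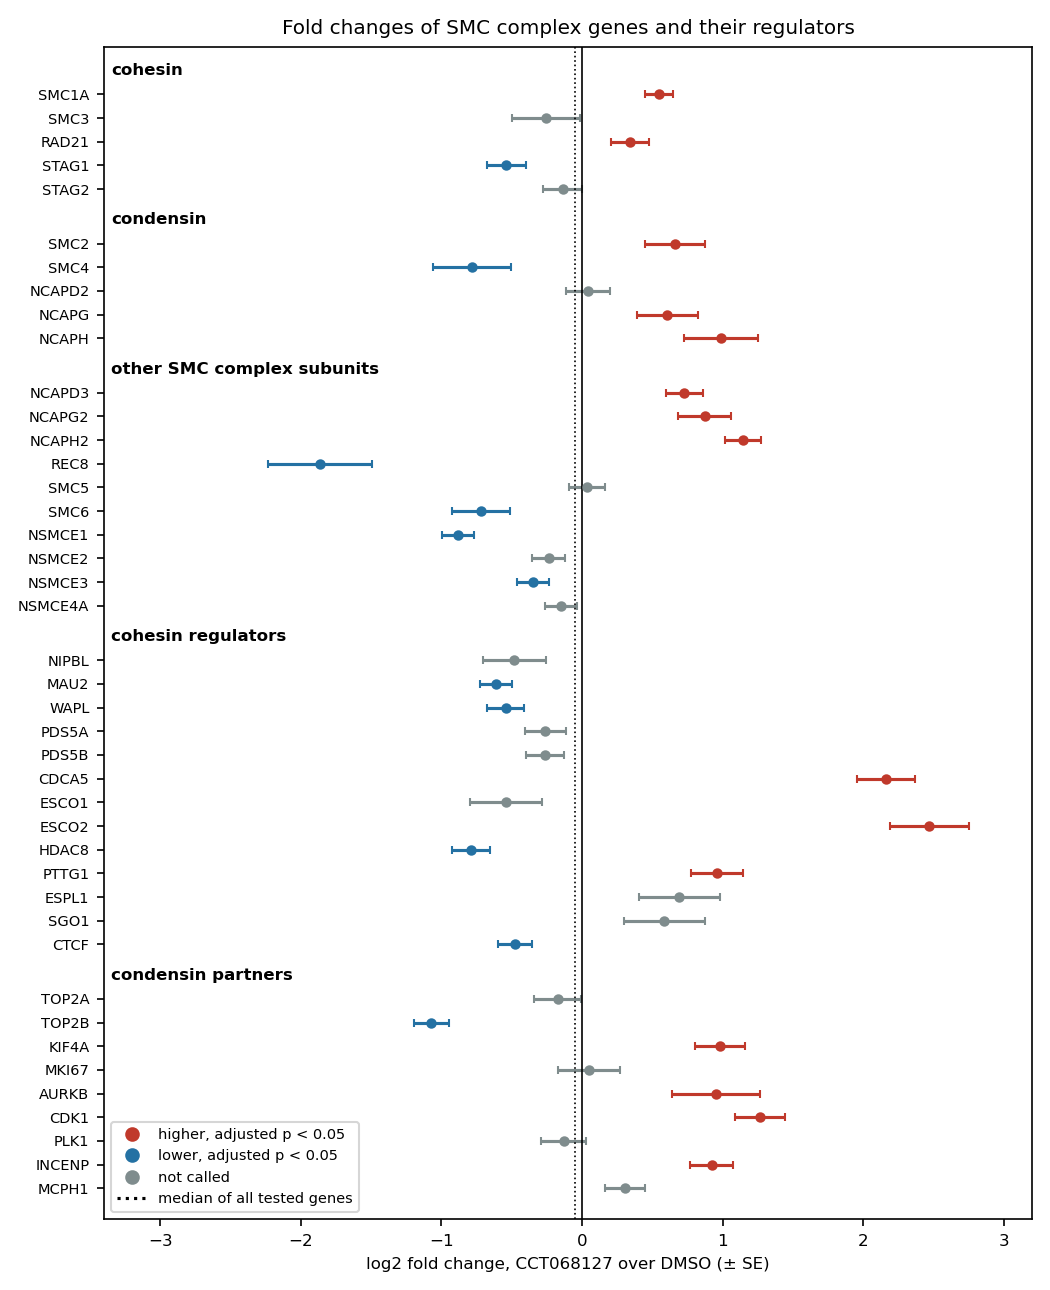
Log2 fold change of CCT068127 over DMSO (point) ± SE (bar) from edgeR for the members and for the tested genes of the 3 lists; red and blue mark genes higher and lower at an adjusted p under 0.05, grey the rest, and the dotted line the median of all tested genes. CDCA5 and ESCO2 lie furthest to the right, at 2.16 and 2.47.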

How the data were processed

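The authors deposited expected counts per gene symbol, as whole numbers, and TPM values. Per the submitters' processing notes, RSEM and Bowtie were used with hg38; versions and annotation are not given in the sources used here. Per the labels, each arm had 3 independent biological replicates, and groups came from the sample titles.

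Counts were tested in R 4.3.3 with edgeR 4.0.16 (filterByExpr with a minimum count of 10, TMM, robust quasi-likelihood, treatment as the term), with Benjamini-Hochberg adjustment over 13597 genes and calls at 0.05. Standard errors were approximated from the F statistic. CPM used TMM-scaled totals of the tested genes. "Rose" and "fell" mark called genes. A count of 0 allows up to 0.0073 to 1.53 CPM per library. That limit for a count of 0 covers counting error only. Alternatives included DESeq2 1.42.0 and limma-trend (limma 3.58.1) on log2(TPM + 1) and log2(TPM + 0.1), with a filter of 1 TPM in 3 libraries. Fold changes from log2(TPM + pseudocount) understate those of low genes. The scripts were tested on simulated data. Members, lists and alternatives were chosen with earlier results of these data known; all 10 members, every other SMC complex subunit, and up to 4 called genes per direction plus the genes not called of the other lists are named. Positions are from RefSeq (GRCh38.p14), and transcript length and GC content from GENCODE 29, which held 88.8% of tested genes.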

Additional observations from a re-analysis of the deposited data

How the results depend on the processing

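Depth limits the treated libraries: NCAPH rests on 120, 35 and 118 counts in CCT068127. STAG1 was the only member called by edgeR that kept its call in every alternative with a test. The median log2 fold change of all tested genes was -0.05 in the reported fit, -0.36 with library totals, -0.46 and -0.53 in the filtered fits on log2(TPM + 1) and log2(TPM + 0.1), -0.042 in the unfiltered fit on TPM, -0.49 without the low-count filter and 0.61 with DESeq2. Fold changes relative to that median were added after seeing the data, as was their split by filter. On that scale SMC1A was -0.10 and RAD21 -0.31 with DESeq2, and RAD21 was -0.11 in the unfiltered fit on TPM.

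On log2(TPM + 1) values 2474 genes were higher and 7472 lower, with 0 cohesin genes higher and 3 lower, 0 condensin genes higher and 2 lower, 1 other SMC subunit higher, 7 cohesin regulators lower and 3 condensin partners lower. On log2(TPM + 0.1) values the counts were 2444 and 7299 over all genes, 0 and 2 for cohesin, 0 and 2 for condensin, with 1 other subunit higher, 7 regulators lower and 3 partners lower. On unfiltered log2(TPM + 1) values 7365 genes were lower, 0 cohesin, 0 condensin and 1 other subunit genes were higher, and 1 partner was higher and 2 lower. With library totals 1 cohesin gene was higher and 2 lower, 1 condensin gene was higher, 8 regulators were lower and 3 partners were lower. Without the low-count filter 0 cohesin genes were higher and 3 lower, 7 other subunits, 8 regulators and 3 partners were lower. DESeq2 called 1 cohesin gene higher, and with DMSO replicates 1 and 2 thinned 0 condensin genes were lower.

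Replicate numbers are shared by the groups. Deviations of same-numbered libraries from their group means had r = 0.0501, 0.000832 and 0.043, and those of other pairs -0.0504 to 0.0216. Values this low cannot exclude pairing, since counting noise in the shallow libraries also lowers r. The numbers were not taken as pairs in the reported fit. With the replicate block 4107 genes were higher and 4190 lower, 1 cohesin gene was higher and 0 condensin genes were lower. RAD21, SMC2 and SMC4 lost their calls under the block, and NIPBL and ESPL1 gained one.

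Leaving out 1 library at a time gave 3848 to 4464 genes higher and 3888 to 4800 lower, 1 to 2 cohesin genes higher, 0 to 3 condensin genes higher and 0 to 1 lower, 3 to 5 regulators higher and 4 to 8 lower, 3 to 4 partners higher and 3 to 4 other subunits lower. The log2 differences of the TPM ratios were 0.18 to 0.29 for STAG2 over STAG1, -1.05 to -0.48 for SMC3 over SMC1A, 1.36 to 1.53 for SMC2 over SMC4 and 0.50 to 0.95 for NCAPG over NCAPD2, and -0.07 to 0.16 for the sums of the complexes.

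Direction changed for some genes, and the cause was not tested. With 1 library left out, the range was -0.53 to 0.018 for SMC3, -0.095 to 0.21 for NCAPD2, -0.091 to 0.14 for SMC5, -0.20 to 0.27 for MKI67 and -0.27 to 0.057 for PLK1. RAD21 was -0.15 in all 3 fits on TPM. NCAPD2 was -0.27 with library totals, -0.20 without the filter, and -0.42, -0.43 and -0.42 on TPM. SMC5 was -0.28 with library totals, -0.20 without the filter, -0.0012 with DESeq2, and -0.30, -0.32 and -0.30 on TPM. MKI67 was -0.26 with library totals, -0.19 without the filter, and -0.39, -0.41 and -0.39 on TPM. MCPH1 was -0.0043 with library totals and -0.16, -0.18 and -0.16 on TPM. Against DMSO replicate 3 alone, SMC5 was -0.025, PLK1 0.0066 and TOP2A 0.023, with no test.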
